A study of Homo sapiens with 8 samples.

Results

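The genes described here are 9 genes that start, restrain or dissolve a blood clot: F3, TFPI, TFPI2, THBD, PROCR, PLAT, PLAU, PLAUR and SERPINE2. They were chosen by name, as genes of coagulation and plasminogen activation that are known to answer to statins. All 9 had a probe on the arrays. Of the 16955 genes that were tested, 7 were members of this set, because THBD and TFPI were too dim for the test. Each gene was read from its brightest probe on average over the arrays. TFPI and PLAU had 2 probes each, and the others 1.

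RNA came from 2 established lines of ovarian cancer cells, OVSAHO and KURAMOCHI, each grown with either simvastatin or L-778123. Each of the 4 groups (OVSAHO with simvastatin, OVSAHO with L-778123, KURAMOCHI with simvastatin, KURAMOCHI with L-778123) had 2 one-color arrays, 8 in all. Simvastatin inhibits HMG-CoA reductase, the enzyme that commits carbon to the mevalonate pathway, and L-778123 inhibits both the farnesyl and the geranylgeranyl transferase, enzymes which attach lipids of that pathway to proteins. The study compared these drugs to ask whether the statin acts by more than the loss of protein prenylation. The comparison alone does not isolate such an action. No untreated array was analysed here, so a difference between the drugs does not show which of them moved a gene. Dose and duration of these cultures are not given in the sources used here, and each type of cell is a single line. Nothing in the labels says that the 2 arrays of a group came from separate cultures, and p-values then measure only the spread between these arrays.

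Coagulation starts when tissue factor, the product of F3, binds factor VII and ends when thrombin cuts fibrinogen to fibrin, while TFPI, thrombomodulin (THBD) and the protein C receptor (PROCR) hold that cascade back. Fibrin and matrix are dissolved by plasmin, which the tissue-type and urokinase-type activators (PLAT and PLAU) cut from plasminogen, PLAU partly on its receptor PLAUR, and which serpins such as SERPINE2 restrain. Statins are known in cultured endothelial cells for raising thrombomodulin and lowering tissue factor, and ovarian carcinomas are known for expressing tissue factor and urokinase.

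Signals are given as scaled signal, the processed intensity of a probe with the 75th percentile of its array set to 100. On this scale the lowest signal that counted as well above background was 2.85 to 4.95, depending on the array. Differences are log2 fold changes from limma with the 4 groups in 1 fit, with the standard error (SE) and a p-value adjusted over all 33753 tested probes. The call rule for a gene asked for a 2-fold difference or more together with an adjusted p under 0.05. The arrays read whole cultures, so fewer cells with a transcript and less transcript per cell cannot be told apart. Signals of different probes are not compared with each other.

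All 12 ovarian serous and epithelial markers, PAX8, WT1 and EPCAM among them, were well above background on all 8 arrays. Of the endothelial markers, CDH5 (13.3 to 21.8) and TIE1 (11.2 to 19.7) were above background on all 8 arrays, TEK on 6 and KDR on 2, and PECAM1 and ERG on 0. Of the leukocyte markers, PTPRC (12.3 to 32.2) and CD14 (24.2 to 33.6) were above it on all 8, ITGAM on 4 and CSF1R on 0. The fibroblast markers COL1A1 and COL3A1 were above it on the 4 KURAMOCHI arrays alone, PDGFRB on 4 arrays, and COL1A2, DCN and LUM on 0. The arrays were alike in quality, with 51.8% to 57.5% of 58162 probes well above background, and the Pearson correlation across probes, which are not independent replicates, was 0.995 to 0.996 between the 2 arrays of a group. All lay on 1 slide, each line and drug in its own positions, so position and group cannot be told apart.

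Promoter sequence is shown for F3 and TFPI2, which were lower with simvastatin in both lines, for SERPINE2, which was higher in both, and for PLAUR, which carries a motif that F3 and TFPI2 carry too. Each line gives the 250 bases before a start site annotated by RefSeq (GRCh38.p14), 5′ to 3′ along the gene, with matches to CACCC (bound by KLF factors), TGANTCA (AP-1) and GGAATG (TEAD), on either strand, in capitals. In F3 a KLF match and an AP-1 match overlap. SERPINE2 has 2 annotated starts in the table, and the one with a match is shown.
F3 (chr1:94541760-94542009, minus strand): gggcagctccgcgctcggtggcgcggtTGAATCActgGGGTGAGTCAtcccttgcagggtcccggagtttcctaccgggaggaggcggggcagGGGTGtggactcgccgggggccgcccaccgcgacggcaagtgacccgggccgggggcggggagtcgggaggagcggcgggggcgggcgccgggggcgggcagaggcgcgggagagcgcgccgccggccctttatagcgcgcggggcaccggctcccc
TFPI2 (chr7:93890754-93891003, minus strand): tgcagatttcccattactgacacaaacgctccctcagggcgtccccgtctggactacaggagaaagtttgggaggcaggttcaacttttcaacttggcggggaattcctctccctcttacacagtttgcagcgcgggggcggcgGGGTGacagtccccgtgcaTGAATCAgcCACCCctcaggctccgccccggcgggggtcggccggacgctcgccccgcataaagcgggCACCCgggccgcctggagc
PLAUR (chr19:43670170-43670419, minus strand): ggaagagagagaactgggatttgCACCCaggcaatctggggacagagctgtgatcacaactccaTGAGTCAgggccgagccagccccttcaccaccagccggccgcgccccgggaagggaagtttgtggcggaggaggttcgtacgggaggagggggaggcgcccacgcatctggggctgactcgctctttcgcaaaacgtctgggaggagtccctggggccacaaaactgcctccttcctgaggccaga
SERPINE2 (chr2:224038641-224038890, minus strand): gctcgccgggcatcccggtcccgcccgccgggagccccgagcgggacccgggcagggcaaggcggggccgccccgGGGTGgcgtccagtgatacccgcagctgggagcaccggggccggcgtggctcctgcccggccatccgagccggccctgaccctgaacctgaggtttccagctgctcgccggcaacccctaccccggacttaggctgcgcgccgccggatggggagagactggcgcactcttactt

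The AP-1 letters stood in F3 at 2 places and in TFPI2 and PLAUR at 1 place each. These are 3 of the 7 genes found in the table and 3 of their 9 windows, against 6.57% of 35114 promoter windows of the same length. KLF letters stood in F3, TFPI2, PLAUR and SERPINE2, 4 of the 7 genes and 4 of the 9 windows, against 54.7% of all windows. The TEAD letters were in no window of the 7 genes, and in 11.9% of all windows. The windows of TFPI, PROCR and PLAU held none of the 3 motifs. THBD and PLAT had no entry. A match is a run of letters and says nothing of binding.

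Between the drugs in OVSAHO cells, PLAT, PLAUR and SERPINE2 were called higher with simvastatin, 3 of the 7 tested genes where 5.69% of all tested genes were called higher. TFPI2 was called lower, 1 of 7, against 5.88% of all tested genes. In KURAMOCHI cells only PLAT was called higher, 1 of 7 against 2.44% of all genes, and 0 were called lower by limma, against 2.94%. The Tukey comparison of the methods also called 0 lower there. Without the fold rule, 4 of the 7 genes (F3, TFPI2, PROCR and PLAU) were lower in KURAMOCHI at limma's adjusted p, against 18.4% of all genes. At the adjusted p alone, 2 genes were lower with simvastatin in both lines (F3 and TFPI2), against 12.4% of all genes, and 2 were higher in both (PLAT and SERPINE2), against 10.6%. The median log2 fold change of the 7 genes was 0.31 in OVSAHO and -0.57 in KURAMOCHI, where that of all tested genes was 0.014 and 0.012.

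The summed signals of the marker lists also differed between the drugs without overlap. In KURAMOCHI the 12 epithelial markers summed to 47120 to 48064 with simvastatin and 79701 to 82233 with L-778123, the 6 endothelial markers to 59.8 to 62.5 and 82.9 to 83.6, and the 6 fibroblast markers to 242 to 248 and 306 to 326. The leukocyte markers ran the other way, at 64.3 to 68.8 and 57.5 to 62.9. In OVSAHO the epithelial sum was 64008 to 65188 with simvastatin and 71513 to 76101 with L-778123, the endothelial sum 36.0 to 38.4 and 38.6 to 42.6, the fibroblast sum 10.3 to 10.8 and 8.26 to 9.76, and the leukocyte sum 50.9 to 52.8 and 48.3 to 49.0. Of the 6 fibroblast markers, 0 were above background on all OVSAHO arrays, so that sum rests on signals near or under background. Such a sum follows its brightest markers. Over the 8 arrays KRT18 ranged from 18993 to 51277 and KRT7 from 1109 to 33876, while WT1 ranged from 385 to 486 and ESR1 from 10.3 to 44.6. The epithelial sum thus does not show that the list as a whole was lower. The part of the shifts in these sums in the drug differences of the 7 genes, which include the lower F3, TFPI2, PROCR and PLAU of KURAMOCHI, was not tested.

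**Figure D1:**
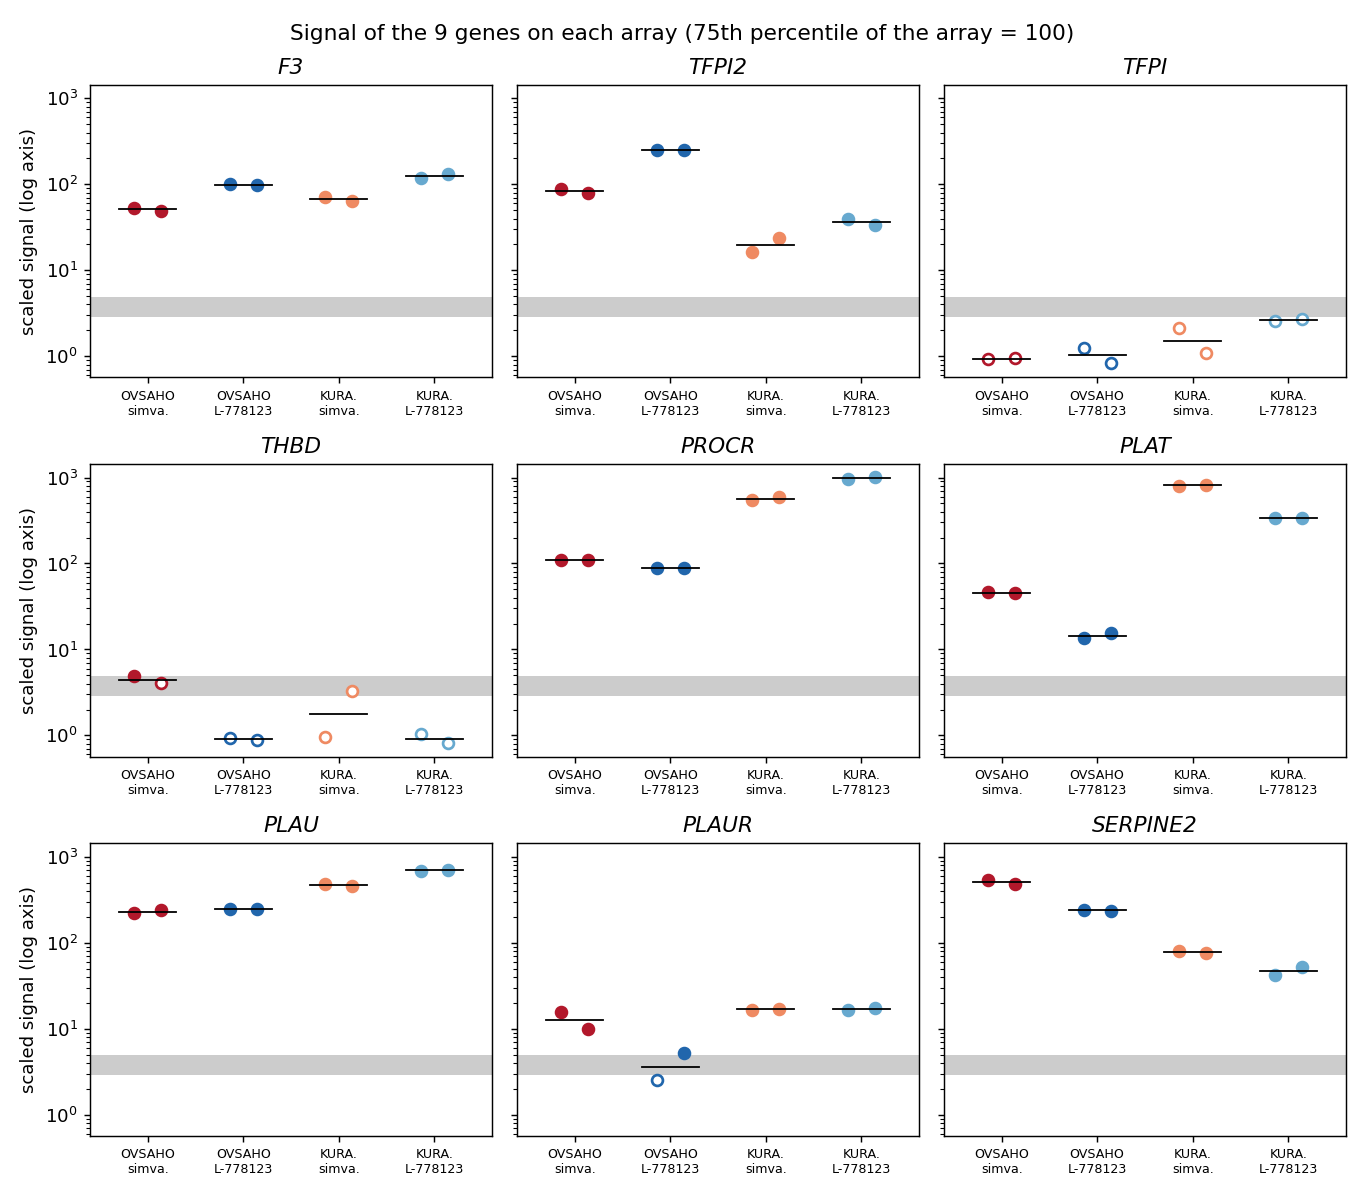
Scaled signal of each gene on each array, on a log axis, for OVSAHO and KURAMOCHI (KURA.) cells with simvastatin (simva.) or L-778123. Filled points are well above background, open points are not, black bars are group means of log2 signal, and the grey band spans the lowest signal above background on the 8 arrays; TFPI and THBD lie in or under the band on every array, and PLAT and PROCR differ most between the lines.

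F3 encodes tissue factor, the membrane protein that starts coagulation. In OVSAHO its scaled signal was 53.5 and 48.6 with simvastatin and 100.4 and 97.6 with L-778123. In KURAMOCHI it was 70.7 and 63.6 with simvastatin and 119 and 133 with L-778123. In each line both simvastatin arrays lay below both L-778123 arrays, and the difference was nearly the same size in both lines. The log2 fold change was -0.96 (SE 0.092, adjusted p = 6.43e-04) in OVSAHO and -0.91 (SE 0.092, adjusted p = 0.00165) in KURAMOCHI, differences of 1.94-fold and 1.88-fold. F3 thus passed the adjusted p in both lines and stayed short of 2-fold in both. The fold changes of the lines differed by -0.05 (95% interval -0.37 to 0.28, adjusted p = 0.831). Without the first simvastatin array of OVSAHO the change there was -1.03 and F3 would be called. F3 was slightly lower in OVSAHO than in KURAMOCHI, by -0.37 averaged over the drugs (adjusted p = 0.00243).

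TFPI2 encodes a Kunitz-type inhibitor that acts on plasmin and on other serine proteases and is secreted into the matrix. Its scaled signal in OVSAHO was 88.3 and 78.7 with simvastatin and 249 and 251 with L-778123. KURAMOCHI cells gave 16.2 and 23.7 with simvastatin and 39.2 and 33.3 with L-778123. The drugs did not overlap in either line, and every KURAMOCHI array lay below every OVSAHO array. In OVSAHO TFPI2 fell by 1.59 on the log2 scale with simvastatin against L-778123 (SE 0.19, adjusted p = 0.00144), a 3.00-fold difference. In KURAMOCHI the log2 fold change was -0.88 (SE 0.19, adjusted p = 0.0193), short of 2-fold. That of KURAMOCHI passed 2-fold, at up to -1.16, without the second simvastatin or the second L-778123 array, and it missed the adjusted p under 4 alternatives, at 0.184 under the Tukey comparison of the methods and at 0.0888 without the first L-778123 array. The difference between the lines was -0.70 (95% interval -1.37 to -0.036, adjusted p = 0.120), which missed the threshold. It passed after normexp background correction (-0.78, adjusted p = 0.00345) and without the first simvastatin array of KURAMOCHI (-0.98, adjusted p = 0.0293), and it was -0.43 (adjusted p = 0.168) without the second.

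TFPI, the main plasma inhibitor of the complex of tissue factor and factor VIIa, was not well above background on any of the 8 arrays by either of its probes. The brighter probe lay between 0.841 and 2.70 and the other between 0.649 and 3.08 in scaled signal. No difference is read from values at this level.

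THBD encodes thrombomodulin, which turns thrombin from a clotting enzyme into an activator of protein C. Its only probe was well above background on 1 of 8 arrays, the first of OVSAHO with simvastatin. The scaled signal in OVSAHO was 4.88 and 4.05 with simvastatin and 0.937 and 0.889 with L-778123. KURAMOCHI gave 0.953 and 3.28 with simvastatin and 1.05 and 0.809 with L-778123. Both simvastatin arrays of OVSAHO lay above the other 6 arrays, and in KURAMOCHI the drugs overlapped. A fit with no filter on dim probes gave THBD a log2 fold change of 2.28 (SE 0.56, adjusted p = 0.0393) in OVSAHO and 0.94 (adjusted p = 0.406) in KURAMOCHI. These values rest on signals at or under the background level, and the OVSAHO difference was 0.52 after normexp background correction.

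PROCR encodes the endothelial protein C receptor, which presents protein C to thrombin and thrombomodulin. Its scaled signal in OVSAHO was 111 and 109.7 with simvastatin and 88.3 and 89.3 with L-778123. KURAMOCHI gave 544 and 596 with simvastatin and 967 and 1004 with L-778123. The drugs were thus in opposite order in the lines, with no overlap in either. The log2 fold change was 0.31 (SE 0.065, adjusted p = 0.0107) in OVSAHO and -0.79 (SE 0.065, adjusted p = 8.80e-04) in KURAMOCHI, both short of 2-fold. The difference between the lines, 1.105 (SE 0.092, adjusted p = 0.00142), had the lowest adjusted p of the 7 genes. An order of this kind, higher in OVSAHO and lower in KURAMOCHI at the adjusted p, was found for 1.74% of all tested genes. Without the first simvastatin array of OVSAHO the adjusted p there was 0.0510, while the difference between the lines passed in every alternative.

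PLAT encodes tissue-type plasminogen activator, the activator that works on fibrin. Its probe stood at 10 places on each array, so its value is a mean over spots. In OVSAHO the scaled signal was 46.3 and 45.4 with simvastatin and 13.6 and 15.3 with L-778123. The KURAMOCHI arrays gave 805 and 813 with simvastatin and 334 and 340 with L-778123. PLAT was the only one of the 7 genes called in the same direction in both lines. The spots of 1 array spread little beside these differences, from 13.1 to 18.1 on the second L-778123 array of OVSAHO and from 41.6 to 53.0 on the second simvastatin array. With simvastatin PLAT rose by 1.67 (SE 0.071, adjusted p = 5.23e-05) in OVSAHO and by 1.26 (SE 0.071, adjusted p = 3.16e-04) in KURAMOCHI, relative to L-778123. The difference of 0.40 between the lines (SE 0.10, adjusted p = 0.0390) did not last under all alternatives. It was -0.11 after normexp background correction, and it missed the adjusted p without 7 of the 8 arrays taken 1 at a time.

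PLAU encodes urokinase, the activator that works mainly at cell surfaces. Its scaled signal in OVSAHO was 220 and 237 with simvastatin and 244 and 248 with L-778123. In KURAMOCHI it was 479 and 451 with simvastatin and 676 and 708 with L-778123. The OVSAHO groups lay close together, and the KURAMOCHI groups stood well apart. The log2 fold change was -0.11 (95% interval -0.27 to 0.059, adjusted p = 0.234) in OVSAHO and -0.57 (SE 0.067, adjusted p = 0.00268) in KURAMOCHI. The lines differed by 0.47 (SE 0.095, adjusted p = 0.0215). The second, dimmer PLAU probe gave -0.11 in OVSAHO and -0.48 (adjusted p = 0.0411) in KURAMOCHI, but a difference between the lines of 0.37 that missed the threshold (adjusted p = 0.219), and the first probe missed it without 5 of the 8 arrays taken 1 at a time.

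PLAUR encodes the urokinase receptor. In OVSAHO its scaled signal was 15.6 and 9.90 with simvastatin and 2.51 and 5.21 with L-778123, the first of these not above background. In KURAMOCHI it was 16.4 and 17.0 with simvastatin and 16.5 and 17.2 with L-778123. The OVSAHO drugs did not overlap. OVSAHO with L-778123 was the low group of the 4. PLAUR rose by 1.78 in OVSAHO with simvastatin against L-778123 (SE 0.37, 95% interval 0.86 to 2.70, adjusted p = 0.0108), and in KURAMOCHI the log2 fold change was -0.01 (95% interval -0.93 to 0.91, adjusted p = 0.986). The difference between the lines, 1.79, missed the threshold (adjusted p = 0.0610), but passed it after normexp background correction (0.63, adjusted p = 0.00430), with signals floored at the lowest one above background (1.49, adjusted p = 0.0223) and without the second L-778123 array of OVSAHO (2.32, adjusted p = 0.0204). The call in OVSAHO was lost without the first simvastatin array (1.45, adjusted p = 0.0543), under the Tukey comparison of the methods' two-way variance analysis (adjusted p = 0.128), and after normexp background correction (0.69, under 2-fold).

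SERPINE2 encodes protease nexin-1, an inhibitor of thrombin and of both plasminogen activators. Its scaled signal in OVSAHO was 530 and 484 with simvastatin and 242 and 236 with L-778123. In KURAMOCHI it was 80.7 and 75.6 with simvastatin and 42.0 and 52.0 with L-778123. The simvastatin arrays were the higher ones in both lines. SERPINE2 rose by 1.08 in OVSAHO (SE 0.11, adjusted p = 9.08e-04), and the log2 fold change in KURAMOCHI was 0.74 (SE 0.11, adjusted p = 0.00659). Between the lines the difference was 0.34 (95% interval -0.058 to 0.75, adjusted p = 0.188). After normexp background correction the OVSAHO value was 0.96, just short of 2-fold, and under the Tukey comparison of the methods the KURAMOCHI value missed the threshold (adjusted p = 0.0774). PLAT and its inhibitor SERPINE2 were both higher with simvastatin in both lines.

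**Figure D2:**
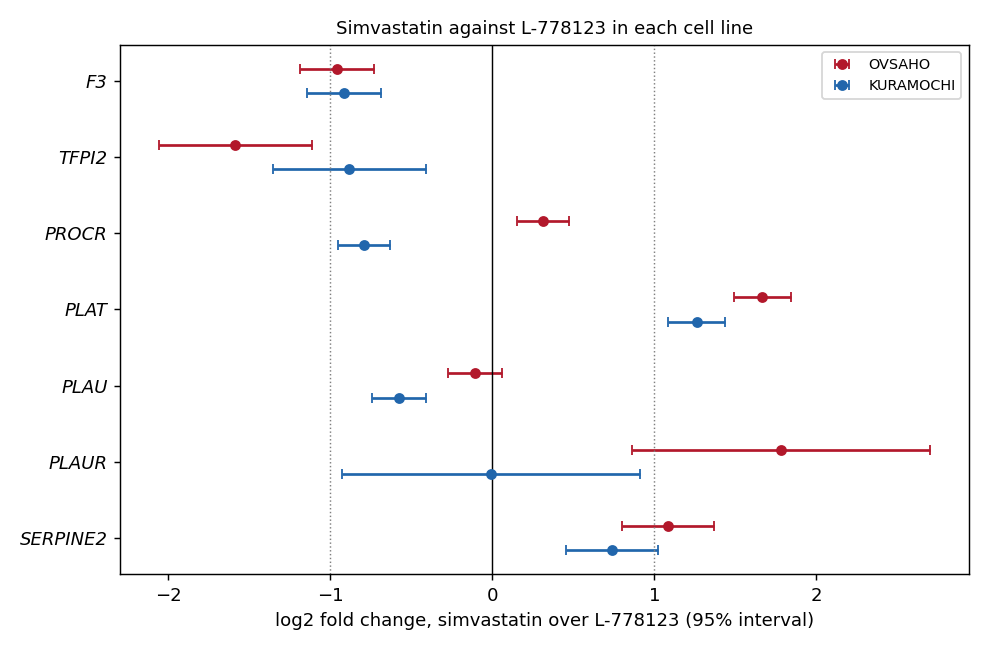
Log2 fold change of simvastatin over L-778123 for the 7 tested genes, in OVSAHO (red) and KURAMOCHI (blue), with 95% intervals from limma; dotted lines mark 2-fold. F3 and TFPI2 lie left of 0 and PLAT and SERPINE2 right of 0 in both lines, and PROCR lies on opposite sides of 0, at 0.31 and -0.79.

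The difference of the drug effect between the lines passed the adjusted p for 3 of the 7 genes, PROCR, PLAU and PLAT, all with the higher value in OVSAHO, where 27.4% of all tested genes passed.

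Between the lines, averaged over the drugs, TFPI2 and SERPINE2 were called higher in OVSAHO, 2 of 7 genes against 18.3% of all, and PROCR, PLAT, PLAU and PLAUR higher in KURAMOCHI, 4 of 7 against 16.4% of all. PLAT was furthest apart, with a log2 fold change of OVSAHO over KURAMOCHI of -4.34 (SE 0.050, adjusted p = 8.28e-08), a 20.3-fold difference. PROCR followed at -2.92 (SE 0.046, adjusted p = 1.64e-07). SERPINE2 and TFPI2 lay the other way, SERPINE2 at 2.53 (SE 0.081, adjusted p = 1.44e-06) and TFPI2 at 2.44 (SE 0.13, adjusted p = 1.22e-05).

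The line difference held under each drug for TFPI2, SERPINE2, PROCR, PLAT and PLAU. PLAT differed by -4.14 with simvastatin and -4.54 with L-778123, PROCR by -2.37 and -3.47, and PLAU by -1.03 and -1.49. TFPI2 differed by 2.09 with simvastatin and 2.79 with L-778123, and SERPINE2 by 2.70 and 2.35. PLAUR was called with L-778123 alone, at -2.22 (adjusted p = 0.00246), against -0.43 (adjusted p = 0.344) with simvastatin. The value of PLAU with simvastatin was close to 2-fold and fell short of it, at -0.99, after normexp background correction, which also brought PLAUR under 2-fold, to -0.76 with L-778123 and to -0.44 averaged over the drugs.

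**Figure D3:**
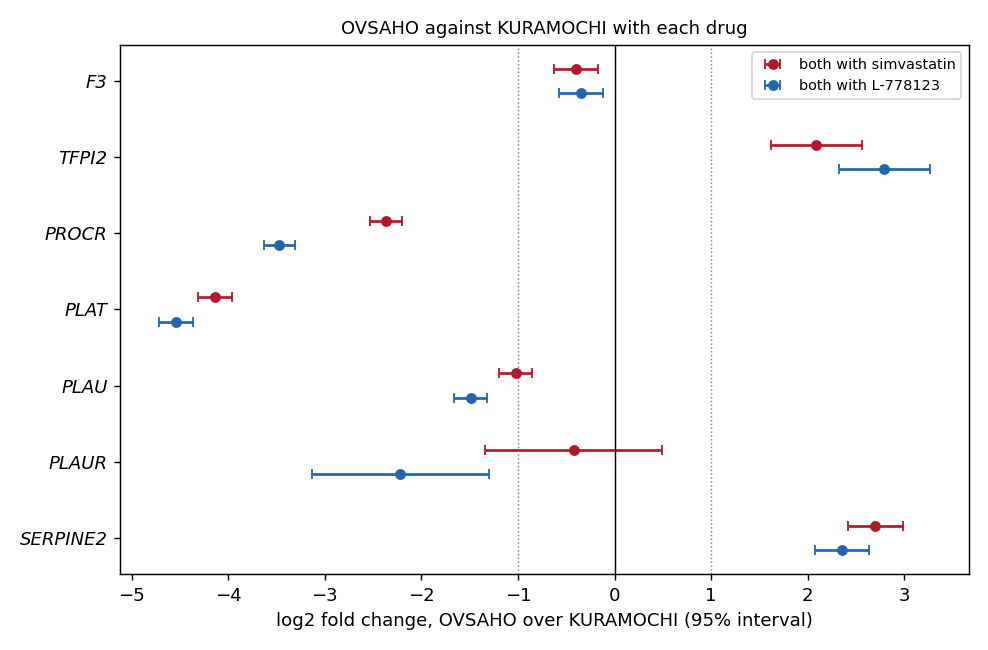
Log2 fold change of OVSAHO over KURAMOCHI for the 7 tested genes, with simvastatin (red) and with L-778123 (blue), with 95% intervals from limma; dotted lines mark 2-fold. TFPI2 and SERPINE2 are higher in OVSAHO and PLAT, PROCR and PLAU higher in KURAMOCHI with either drug, and PLAUR differs by -2.22 with L-778123 and -0.43 with simvastatin.

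In the order of the 4 groups, each neighbour differed from the next at an adjusted p under 0.05 for F3, TFPI2, PROCR, PLAT and SERPINE2. For PLAU, OVSAHO with L-778123 and with simvastatin did not (adjusted p = 0.234). For PLAUR, neither the KURAMOCHI groups (adjusted p = 0.986) nor KURAMOCHI and OVSAHO with simvastatin (adjusted p = 0.344) did.

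Marker genes of other cell types moved with the line too. The 6 fibroblast markers summed to a scaled signal of 8.26 to 10.8 on OVSAHO arrays and 242 to 326 on KURAMOCHI arrays. In KURAMOCHI nearly all of the sum was COL3A1, which was not above background on any OVSAHO array. COL1A2, DCN and LUM were below background on every array. The 6 endothelial markers summed to 36.0 to 42.6 in OVSAHO and 59.8 to 83.6 in KURAMOCHI, with CDH5 and TIE1 above background on every array and PECAM1 and ERG on none. The part of these markers in the line differences of PLAT and PROCR was not tested.

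Of 45 other genes of coagulation and fibrinolysis in 5 lists, 26 were bright enough to test. In OVSAHO 1 of them was called higher and 2 lower with simvastatin against L-778123, beside 5.69% and 5.88% of all tested genes. In KURAMOCHI 0 were called higher (by limma and by the Tukey comparison) and 1 lower, beside 2.44% and 2.94%. At limma's adjusted p alone, 5 of the 26 were higher in KURAMOCHI and 10 lower, beside 17.1% and 18.4% of all tested genes. The median log2 fold change of the 26 genes was -0.13 in OVSAHO and -0.10 in KURAMOCHI. The 5 coagulation factors tested gave 1 called gene, VWF in OVSAHO, and the 8 genes of the plasminogen system and 4 of the vitamin K cycle gave 0 in either line. At the adjusted p alone, the plasminogen list had 2 higher and 3 lower in OVSAHO and 1 higher and 5 lower in KURAMOCHI, and the vitamin K list 1 higher and 2 lower in each line, beside 26.4% and 27.5% of all tested genes in OVSAHO and 17.1% and 18.4% in KURAMOCHI. Among those too dim to test were prothrombin (F2), the fibrinogen chains FGA, FGB and FGG, plasminogen (PLG) and SERPINB2, a plasminogen activator inhibitor. PLG, whose product is the substrate of PLAT and PLAU, was well above background on 0 of 8 arrays.

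VWF encodes von Willebrand factor, which carries factor VIII and tethers platelets. Its scaled signal in OVSAHO was 6.96 and 6.64 with simvastatin and 68.2 and 65.4 with L-778123. In KURAMOCHI it was 48.4 and 39.8 with simvastatin and 49.8 and 47.7 with L-778123. OVSAHO with simvastatin was the only low group. VWF fell by 3.30 in OVSAHO (SE 0.10, adjusted p = 2.43e-05), the log2 fold change in KURAMOCHI was -0.15 (adjusted p = 0.313), and the lines differed by -3.15 (adjusted p = 3.25e-04). VWF has 2 probes, and these values are of the brighter one. For the mean of both probes the value in OVSAHO was -1.67, which passed the call rule but was much smaller. The brighter probe accounts for nearly all of that mean, so the dimmer probe showed little or no difference between the drugs in OVSAHO.

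The 4 protease-activated receptors, through which thrombin and other proteases signal to cells, were all lower with simvastatin in OVSAHO at the adjusted p, where 27.5% of all tested genes were, and 1 of them was called. The called one was F2RL2, with a scaled signal of 8.78 and 9.08 with simvastatin and 48.6 and 43.6 with L-778123 in OVSAHO, and of 103 and 101.6 with simvastatin and 115 and 101.9 with L-778123 in KURAMOCHI. F2RL2 fell by 2.37 in OVSAHO (adjusted p = 3.53e-05; -1.20 after normexp background correction), and its log2 fold change in KURAMOCHI was -0.08 (adjusted p = 0.522). F2RL1, which trypsin-like proteases and the complex of tissue factor and factor VIIa activate, had log2 fold changes of -0.96 and -0.87 in OVSAHO and KURAMOCHI (adjusted p = 4.15e-04 and 0.00130). F2R, the main thrombin receptor, had -0.45 (adjusted p = 0.0449) in OVSAHO and 0.71 (adjusted p = 0.0150) in KURAMOCHI, and F2RL3 had -0.45 and -0.05. The value of F2R in OVSAHO missed the threshold under several alternatives, with an adjusted p of up to 0.375, while the other 3 receptors passed it in OVSAHO under each alternative run. In KURAMOCHI the value of F2R missed it under the Tukey comparison (adjusted p = 0.145) and in limma with these groups fitted alone (adjusted p = 0.0559).

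Of the natural anticoagulants, 5 were tested, of which 1 was called higher in OVSAHO and 1 lower in KURAMOCHI, beside 5.69% and 2.94% of all tested genes. PROC, the protein C that PROCR binds, had a scaled signal of 169 and 159.7 with simvastatin and 50.9 and 60.3 with L-778123 in OVSAHO. It rose by 1.57 in OVSAHO (adjusted p = 2.16e-04), and its log2 fold change in KURAMOCHI was 0.74 (adjusted p = 0.00576). The KURAMOCHI value missed the threshold for the mean of the 2 PROC probes (0.64, adjusted p = 0.0660 by limma) and under the Tukey comparison (adjusted p = 0.0691). PROS1, the cofactor protein S, had log2 fold changes of 0.54 in OVSAHO and 0.57 in KURAMOCHI, with an adjusted p of 0.00346 and 0.00536. SERPINA5, the protein C inhibitor, gave 44.9 and 43.8 with simvastatin and 198 and 194 with L-778123 in KURAMOCHI. It fell by 2.14 there (SE 0.13, adjusted p = 4.01e-04) and was not above background on any OVSAHO array, so that it was at least 59.3-fold higher in KURAMOCHI with L-778123 and at least 10.8-fold with simvastatin.

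ANXA2 and S100A10, which form a plasminogen receptor on the cell surface, had log2 fold changes of -0.66 and -0.69 in KURAMOCHI (adjusted p = 0.00130 and 0.00212). In OVSAHO they had -0.25 (adjusted p = 0.0184) and -0.11 (adjusted p = 0.289). The OVSAHO value of ANXA2 was -0.097 (adjusted p = 0.398) for the mean of its 2 probes, and it also missed the threshold under the Tukey comparison (adjusted p = 0.0519), with these groups fitted alone, with no filter, and without 3 of the arrays taken 1 at a time. Both were short of 2-fold in either line.

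**Figure D4:**
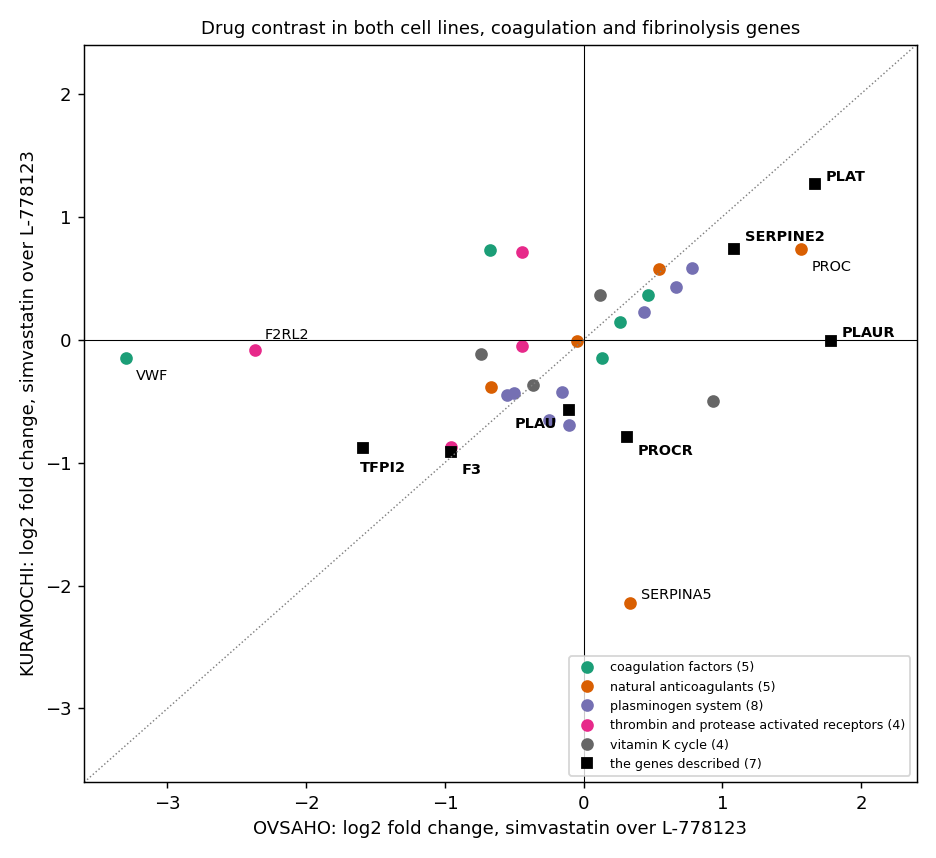
Log2 fold change of simvastatin over L-778123 in OVSAHO (horizontal) and KURAMOCHI (vertical) for the 7 tested genes (black squares) and 26 other coagulation and fibrinolysis genes (circles, colored by list, with the number of genes in brackets). The dotted line marks equal values; VWF and F2RL2 lie far to the left near 0 on the vertical axis, SERPINA5 lies low at -2.14, and PLAT lies highest at 1.26.

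Over the 8 arrays, the genes whose signal ran most like that of PLAT among 14491 genes above background on all arrays were TMEM190 (Pearson r 0.9995), BAIAP3 (0.999) and PIGQ (0.999). Over the 4 group means they were MIDEAS-AS1, PTPN12 and PIP4P1. For THBD, itself above background on 1 array, they were BAD (0.960), TMPRSS6 (0.958) and SLC25A45 (0.950) over arrays, and INHBB, GCNA and RPS27 over group means. These values are descriptions over few points that share slide and groups, and the genes named changed with the measure.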

How the data were processed

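Total RNA of the 8 samples was labeled with 1 dye and hybridized to Agilent SurePrint G3 arrays for human genes, and samples were grouped by their labels. The authors extracted the scans with Agilent Feature Extraction 11.5.1.1 and deposited, for each spot, the processed intensity, which is corrected for background within the array and not normalized between arrays, the median intensities of spot and background, and flags. They also deposited a table of normalized intensity on a linear scale, used here as an alternative. Its columns share 1 median (26.5) and the same quartiles, as after quantile normalization, while the methods name the 75th percentile, so it is not independent of the quantile alternative.

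Control spots and spots flagged as outliers were left out, the spots of a probe were averaged, and each array's 75th percentile (324 to 437 in intensity units) was subtracted on the log2 scale, as in the study's methods. No spot was saturated. A probe was kept where 1 or more groups had it well above background on each of their arrays, which left 33753 of 58162. Symbols came from the RefSeq accessions of the array design (24782 of 50096 identifiers named), which took 31104 probes to a gene. Coordinates of the promoters are those of GRCh38.p14, while the array design uses an older build, and no position was carried between them. The number of arrays limits the precision.

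The contrasts came from 1 limma fit (version 3.58.1, R 4.3.3; a mean for every group, eBayes, Benjamini-Hochberg adjustment), and the script was tested on simulated data. Plots were made with Python 3.11.15 and matplotlib 3.10.9. Where no array of a group had a probe above background, its fold change is given as a bound against the lowest such signal of each array. Genes named beside the 9 are those of the 5 lists called in a drug contrast, and the 3 genes most like THBD and PLAT. The other receptors, PROS1, ANXA2, S100A10, GGCX and NQO1 were named after their values were seen. The members, lists and tests were chosen with earlier results of these data known. Alternatives were normexp with an offset of 50 (on the median spot intensity), quantile normalization, another 75th percentile, the authors' table, other filters, a floor, the mean over the probes of a gene, other thresholds, the Tukey comparison of the methods' two-way variance analysis, the replicate number as a block, groups fitted alone, and each array left out.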

Additional observations from a re-analysis of the deposited data

Results flagged for a closer look

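The effect of simvastatin against L-778123 differed between OVSAHO and KURAMOCHI, by limma's test of the difference itself, for 3 of the 7 genes tested of the 9 described, against 27.4% of all tested genes. The difference, OVSAHO minus KURAMOCHI on the log2 scale, was 1.105 for PROCR, 0.47 for PLAU and 0.40 for PLAT. PROCR was in opposite order in the lines, PLAU was lower with simvastatin in KURAMOCHI alone at the adjusted p, and PLAT was higher in both.

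Of the 26 other genes tested, 10 differed by the same test, against that 27.4%, and 6 to 9 did with any 1 array left out. VWF differed by -3.15 (-1.64 for the mean of its probes) and F2RL2 by -2.29 (-1.12 after normexp background correction). For SERPINA5 the fit gave 2.48, but no OVSAHO array had it above background, so that its size is not measured. NQO1, a quinone reductase that can reduce vitamin K, differed by 1.43 and F2R by -1.16. PROC differed by 0.83, GGCX, the carboxylase that activates vitamin K-dependent factors, by -0.62, S100A10 by 0.59, ANXA2 by 0.40 and F2RL3 by -0.40. By limma, that of PROC missed the threshold for the mean of its 2 probes (0.89, adjusted p = 0.0815) and with no filter on dim probes (adjusted p = 0.0523). That of S100A10 missed it with no filter (adjusted p = 0.0602 by limma) and without some of the arrays taken 1 at a time. Those of ANXA2 and of F2RL3 missed the threshold without 7 of the 8 arrays taken 1 at a time.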

How the results depend on the processing

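Over the alternatives, single genes kept their direction and their side of the threshold in 1500 cases, moved past it in 50, fell short of it in 50 and changed direction in 13, and values of THBD and TFPI, which had no test, moved by more than the spread between replicates in 6. Many that moved past it did so under a looser fold rule, with the value unchanged. Many of the 1500 could hardly move, as when an array of the other line was left out, which leaves the estimate as it was. The tally is thus no measure of robustness. Each reversal was of a value that missed the threshold under the alternative. The difference of PLAT between the lines was -0.11 (adjusted p = 0.406) after normexp background correction, whose offset of 50 lowers differences of dim probes by its construction. The drug effect on PLAUR in KURAMOCHI, -0.01, was 0.063 after normexp, 0.016 after quantile normalization and 0.016 in the authors' table, which has the same quantiles in every column and is no separate check, and -0.040 to 0.019 with each array left out. With each array left out, the difference between the lines ranged from -0.12 to 0.034 for F3, from -0.12 to 0.070 for PROS1 and from -0.18 to 0.0044 for F2RL1, and the drug effect on F2RL2 in KURAMOCHI from -0.17 to 0.0077.

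Counts moved most with the thresholds. At the adjusted p alone, the members called in KURAMOCHI were 2 higher and 4 lower, and with a fold of 1.5 they were 2 higher and 3 lower. In OVSAHO 2 members were lower under either threshold, and 1 was higher after normexp. With no filter on dim probes 1 member differed between the lines. With each array left out, 2 to 3 members were higher and 1 to 2 lower in OVSAHO, 0 to 1 lower in KURAMOCHI, 1 to 3 differed between the lines, and 2 to 3 were higher in KURAMOCHI than in OVSAHO with simvastatin. Shares of all tested genes were not computed for a fold of 1.5 or for the line contrasts at the adjusted p alone. Counts under those rules are thus not read as a trait of the genes. With 2-fold as well, 18.3% of all tested genes were higher in OVSAHO and 16.4% lower, averaged over the drugs. Of the other 26 genes, at the adjusted p alone 5 were higher and 11 lower in OVSAHO, beside 26.4% and 27.5% of all genes. In KURAMOCHI 5 were higher and 10 lower, beside 17.1% and 18.4%. OVSAHO against KURAMOCHI then had 17 lower averaged over the drugs, 7 higher and 16 lower with simvastatin, and 7 higher and 13 lower with L-778123. With a fold of 1.5, 4 were higher and 5 lower in OVSAHO, and 2 higher and 4 lower in KURAMOCHI. With no filter 2 were higher in OVSAHO and 6 differed between the lines, where each array left out gave 1 to 2 and 6 to 9. With probes above background on all arrays, 0 were lower in KURAMOCHI and 5 were lower in OVSAHO than in KURAMOCHI with L-778123. The causes were not tested.

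With the replicate number as a block, 3688 probes in place of 3701 were called in OVSAHO, 1853 in place of 1888 in KURAMOCHI, and 6437 in place of 7722 for the difference between the lines, where PLAT had an adjusted p of 0.0591. Differences between the replicates of a group correlated between groups at 0.00085 to 0.056, so that the arrays share only a number. The two-way analysis of variance gives the difference between the lines as its interaction. With 2 arrays a group no array was tested as an outlier, and dim genes such as THBD, TFPI and PLAUR are limited by signal over background.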
